A study of Mus musculus with 9 samples.

Results

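Uncx is a mouse gene on chromosome 5 that encodes a homeodomain transcription factor of the paired-like class. It was measured here as 1 of 12188 genes in the dorsal telencephalon, the forebrain wall that forms the cerebral cortex, of mouse embryos at stage E13.5. It is listed as ENSMUSG00000029546_at and was selected because, among genes with no overlap between knockout and control arrays, it rose most in the Dicer knockouts. Its levels by genotype are therefore given as a description, with no test.

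The knockout group held 5 embryos (replicates 5, 7, 9, 10 and 11) with a conditional deletion of Dicer, the enzyme that cuts microRNA precursors into mature microRNAs, and all 5 were labelled male. The control group held 4 embryos, in which controls 1 and 2 were labelled female and controls 3 and 4 male. Every embryo was of strain C57Bl6/J and contributed 1 array. The labels give the control genotype as control and begin the titles of these samples with HTZ, so the controls are not taken to be wild type. No source used here gives the Cre driver or the cells in which Dicer was deleted. Some embryos shared a litter, per the series' design, but the litters are not named, and the tests take the embryos as independent.

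Homeodomain proteins bind short AT-rich DNA sites and set the identity of body regions and cell types during development. In the mouse, Uncx (also known as Uncx4.1) is best known from the caudal part of the somites, the segmented blocks of trunk tissue, where it is needed for the pedicles and the proximal ribs of the axial skeleton. It is also expressed in parts of the developing nervous system.

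In the RefSeq annotation Uncx lies between the protein-coding genes Zfand2a and Micall2. The stretch just before the annotated start of Uncx is shown because it places the gene in the genome. It spans 217 bases on the plus strand of GRCm38.p6, at chr5:139543648-139543864, and the capitals mark the motif TAATTA, a homeodomain core site that reads the same on both strands.

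Uncx upstream: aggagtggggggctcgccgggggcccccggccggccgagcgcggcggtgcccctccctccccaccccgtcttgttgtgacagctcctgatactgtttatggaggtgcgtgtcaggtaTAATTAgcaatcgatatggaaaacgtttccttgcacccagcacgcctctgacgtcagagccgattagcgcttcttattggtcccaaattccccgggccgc

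The motif occurred 1 time in this stretch. Of 32851 RefSeq windows of the same length, 4.49% held it. The stretch held 18 CG dinucleotides, where the median window held 5, and 84.5% of the windows held fewer. The arrays measured RNA and carry no information on this sequence, so the match is only a description of the letters.

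Uncx was high on all 5 knockout arrays and low on all 4 control arrays. Its log2 value was 7.73 in knockout 5, 7.63 in knockout 7, 7.62 in knockout 9, 8.11 in knockout 10 and 8.16 in knockout 11. It was 5.90 in control 1, 5.83 in control 2, 5.53 in control 3 and 5.84 in control 4. Knockouts 10 and 11 stood above the other knockouts by 0.38 log2 units, control 3 was the lowest array, and the groups did not overlap. Non-overlap in either direction was found for 24.1% of all genes and for 9.99% with the knockouts higher.

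**Figure D1:**
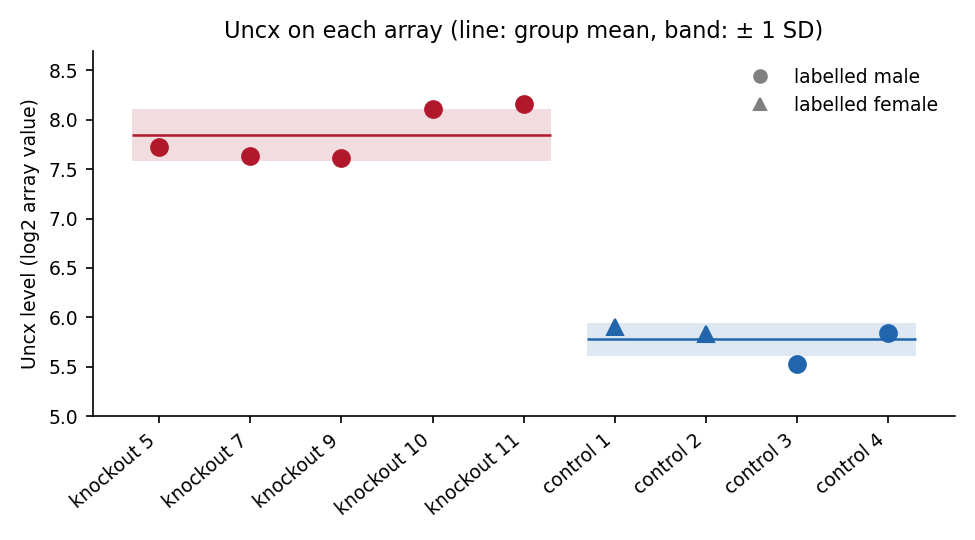
Uncx level (log2 array value) on each of the 9 arrays, with knockouts in red and controls in blue, circles for embryos labelled male and triangles for those labelled female. Lines are group means and bands 1 SD; the lowest knockout (7.62) lies 1.71 log2 units above the highest control (5.90).

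The mean Uncx level was 7.85 ± 0.26 (SD, n = 5) log2 units on the knockout arrays. On the control arrays it was 5.78 ± 0.17 (SD, n = 4). The difference of the means was 2.07 log2 units with a standard error of 0.14 (limma), which is a 4.2-fold higher level. Taking each knockout against each control, 20 pairs in all, the difference ran from 1.71 to 2.63 log2 units, or from 3.28-fold to 6.17-fold. The difference was 9.08 times the within-genotype SD of Uncx, which was 0.228 log2 units. That spread was larger than for most genes: the median within-genotype SD was 0.143, and 80.1% of the genes had a smaller one than Uncx. In tissue RNA, more Uncx-expressing cells and more Uncx RNA per cell cannot be told apart.

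The selection ranked genes by their rise and asked only that the groups not overlap. Uncx stood farther from the next gene in the gap between the groups than in the rise. The lowest knockout value of Uncx exceeded the highest control value by 1.71 log2 units, the widest gap between the genotypes of any gene in the table. The next gap was 1.05, and Uncx and that gene were the only 2 with a gap of at least 1 log2 unit. The next largest rise with separated groups was 1.91 log2 units, or 3.77-fold, with a gap of 0.627. Just outside the rule, 2 genes had larger rises, of 2.38 and 3.91 log2 units, but their groups overlapped. The controls of these 2 genes varied with an SD of 1.54 and 2.50 log2 units, against 0.17 for Uncx. All knockouts were labelled male and the controls were of both labelled sexes. Neither gene was called between control males and control females (limma, contrast given below), and the cause of their spread was not tested.

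**Figure D2:**
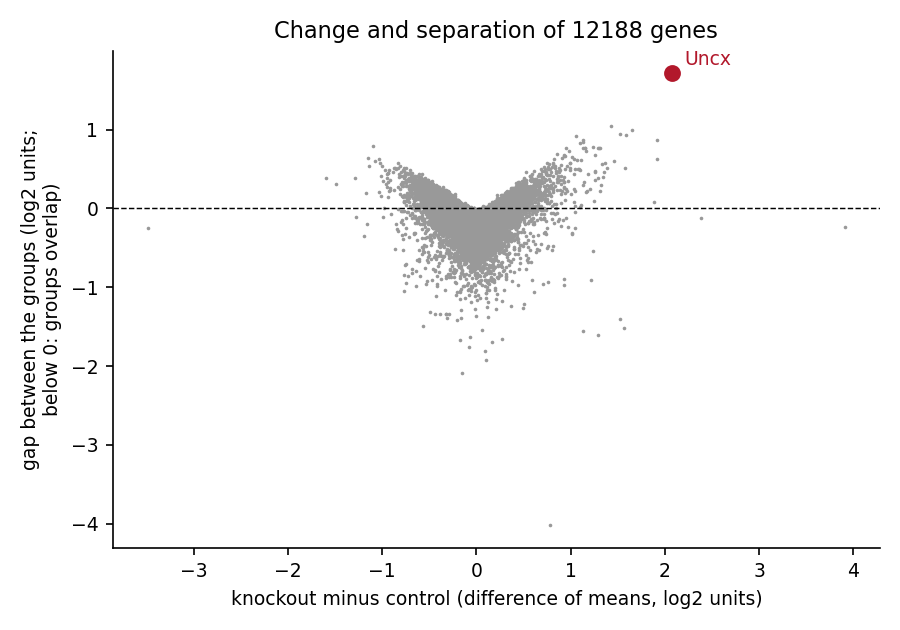
Each point is 1 gene, placed by the difference of the group means (x axis, knockout minus control, log2 units) and by the gap between the groups (y axis, log2 units, below 0 where groups overlap). Uncx, in red, lies at a difference of 2.07 and a gap of 1.71, and the next highest gap is 1.05.

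Rescaling the arrays left this pattern in place. After quantile normalization the difference was 2.08 log2 units with a gap of 1.70, and after subtraction of each array's median it was 2.09 with a gap of 1.68. With each array left out in turn the difference ran from 1.99 to 2.13 log2 units.

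Because all knockouts were labelled male, the controls were also considered by labelled sex. The mean Uncx level was 5.69 in the 2 control males and 5.87 in the 2 control females. The male minus female difference was -0.18 log2 units with a standard error of 0.20 and did not pass the test (limma over 3 groups, two-sided, adjusted p = 0.838 over all genes). No gene passed in that contrast (0 called with limma, 0%, and also 0 when the spread was fitted robustly against intensity), and 869 had an unadjusted p under 0.05. No gene thus set the control males apart from the control females, and the contrast gives the sex labels no support. Sex-linked genes could not be picked out without symbols, so whether the labels are right was not tested. All results by sex, including the fits with males only or with sex as a covariate, rest on these labels. The lower male mean came from control 3, since control 4 at 5.84 lay between the females. The knockouts exceeded the control males by 2.16 log2 units and the control females by 1.98, 2 differences that share all 5 knockouts. The size of a sex effect on Uncx in knockouts cannot be obtained, as no knockout was labelled female.

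Some arrays deviated from their group over many genes, and Uncx did not share all of these deviations. Knockout 7 lay nearer to the controls than the other knockouts did. Across the 2907 genes called in a fit without knockout 7, the median gene of that array had moved 0.645 times as far from the control mean as in the other knockouts. Uncx in knockout 7 had moved 0.873 times as far, a larger share than in 80.7% of these genes. In knockout 5 the order was the other way, with a median share of 1.19 over 2708 genes and a share of 0.928 for Uncx. The shares of Uncx were 0.863 in knockout 9, 1.16 in knockout 10 and 1.19 in knockout 11, where the medians of the called genes were 0.854, 1.05 and 1.02. Thus the Uncx shares of the 5 knockouts spread from 0.863 to 1.19 and the median shares from 0.645 to 1.19. Because Uncx was chosen on this contrast, these shares are not tested.

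**Figure D3:**
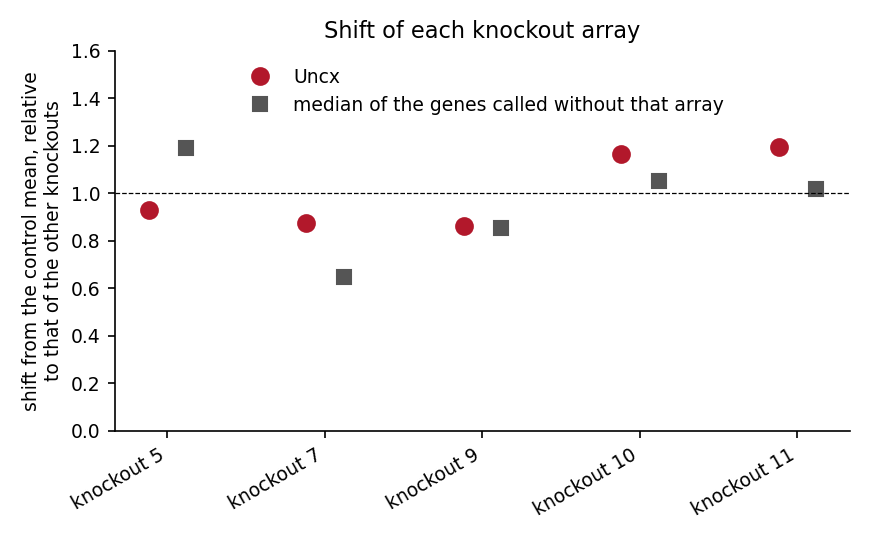
For each knockout array, the shift from the control mean relative to the mean shift of the other 4 knockouts (y axis, no unit) for Uncx (red circles) and as the median of the genes called in the fit without that array (grey squares). In knockout 7 Uncx is at 0.873 and the median gene at 0.645, whereas in knockout 5 Uncx is at 0.928 and the median gene at 1.19.

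Among the controls, control 4 stood farthest from its group mean over all genes, where its root mean square deviation was 0.297 log2 units and that of controls 1 to 3 was 0.132 to 0.162. For Uncx, control 4 deviated by only 0.07 log2 units. Control 3 deviated most for Uncx, by -0.25 log2 units, and by 0.162 in root mean square over all genes. The Uncx values of the controls therefore did not follow the array that stood apart.

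Which genes followed Uncx from embryo to embryo was asked after the genotype means had been removed. For each gene, Pearson's r was computed between its deviations from the genotype means and those of Uncx over the 9 arrays, of which 7 values are free. To keep single arrays from setting the order, the likeness of a gene is the r nearest to 0 among that of all arrays and those with 1 array left out in turn. The 9 values share their arrays and the authors' normalization, so r is a description, with no p. The 10 most alike and the 10 most opposite genes were taken.

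ENSMUSG00000024754 was the gene most like Uncx, with r = 0.98 over 9 arrays, a likeness of 0.98 and Spearman's rho of 0.88. Its log2 values were 9.996, 9.88 and 9.93 in knockouts 5, 7 and 9, 10.44 in knockout 10 and 10.38 in knockout 11. In controls 1 to 4 they were 9.66, 9.68, 9.35 and 9.66. As for Uncx, knockouts 10 and 11 were the highest and control 3 the lowest, and its groups did not overlap. Within genotype it moved by 0.976 log2 units for each log2 unit of Uncx. Its knockout mean was 10.13 ± 0.27 (SD, n = 5) and its control mean 9.59 ± 0.16 (SD, n = 4), so it was 1.45-fold higher (limma adjusted p = 0.0169). This call was lost with sex as a covariate or with males only, where adjusted p was at most 0.0856, although the difference was larger there, at 0.62 log2 units, than the 0.54 over all arrays.

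ENSMUSG00000038894 was the next most alike, with r = 0.97 over 9 arrays, a likeness of 0.96 and rho of 0.90. It moved by 2.21 log2 units for each log2 unit of Uncx. Its log2 values were 7.26, 7.10 and 7.39 in knockouts 5, 7 and 9, 8.32 in knockout 10 and 8.38 in knockout 11. In controls 1 to 4 they were 7.51, 7.49, 6.79 and 7.52, so the groups overlapped. The knockout minus control difference of 0.36 log2 units (SE 0.29) did not pass the test (limma adjusted p = 0.412). Following Uncx among embryos of 1 genotype thus went with no called genotype difference at this gene.

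ENSMUSG00000030271 was the most opposite gene, with r = -0.96 over 9 arrays, a likeness of -0.95 and rho of -0.92. Its log2 values were 7.04, 7.12 and 7.09 in knockouts 5, 7 and 9, 6.94 in knockout 10 and 6.90 in knockout 11. In controls 1 to 4 they were 7.21, 7.20, 7.38 and 7.20. Control 3 was its highest array, knockouts 10 and 11 the lowest, and the groups did not overlap. It was 1.17-fold lower in the knockout (difference -0.23 log2 units, limma adjusted p = 0.0413), and this call held in only 3 of 14 alternative fits, with adjusted p up to 0.128, while the difference stayed between -0.27 and -0.19 log2 units.

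ENSMUSG00000027371 was the second most opposite gene, with r = -0.96 over 9 arrays, a likeness of -0.95 and rho of -0.97. Its log2 values were 6.95, 6.92 and 7.03 in knockouts 5, 7 and 9, 6.68 in knockout 10 and 6.65 in knockout 11. In controls 1 to 4 they were 6.95, 7.07, 7.17 and 6.98, and the groups overlapped. Its difference of -0.19 log2 units (SE 0.09) did not pass the test (limma adjusted p = 0.164). Without control 3 and knockout 9, the 2 arrays farthest from the median deviation of Uncx, r was 0.98 and 0.99 for the 2 alike genes and -0.96 and -0.95 for the 2 opposite genes. Knockouts 10 and 11, which deviate most from their group mean and were kept there, were also left out together, a choice made after the data were seen. Then r was 0.97 and 0.89 for the 2 alike and -0.96 and -0.85 for the 2 opposite genes. Over all 20 genes it was 0.80 to 0.98 for the alike and -0.96 to -0.76 for the opposite ones, and 0 of the 20 genes would have been chosen again by likeness over the 7 arrays left.

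All 10 alike genes had knockouts 10 and 11 above the other knockouts and control 3 below the other controls, as Uncx did. All 10 opposite genes had the reverse order. Over all genes, 637 (5.23%) showed the order of Uncx and 392 (3.22%) the reverse. The choice by likeness favours such genes, so these counts describe the pattern and do not support it.

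**Figure D4:**
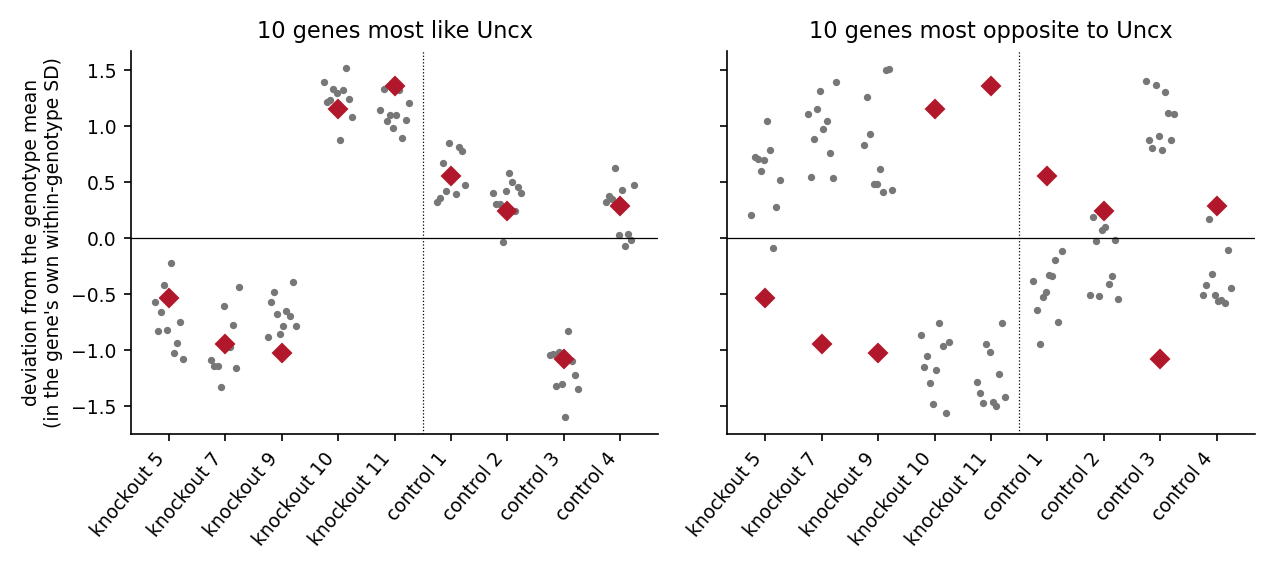
Deviation of each array from its genotype mean, in units of each gene's own within-genotype SD, for Uncx (red diamonds) and for the 10 genes most like it (left, grey points) or most opposite to it (right, grey points). Knockouts 10 and 11 are above the mean and control 3 below it for Uncx and for all 10 alike genes, and the reverse holds for all 10 opposite genes.

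The genotype difference was not used to choose these 20 genes. Of them, 5 were called between knockout and control (limma adjusted p under 0.05), where 24.6% of all genes were called. Of the 10 alike genes 1 was called, higher in the knockout, where 11% of all genes were called higher. Of the 10 opposite genes 4 were called, 3 higher and 1 lower, where 13.6% of all genes were called lower. All 10 alike genes and 5 of the 10 opposite genes had a higher mean in the knockout, called or not, where 47.2% of all genes had. The genes of each side were chosen for sharing a profile over the arrays, so their directions are not independent of each other. The counts of 10 and 5 with a higher mean were the same after quantile normalization and after median subtraction. Of all genes, 49.1% and 51.3% had a higher mean there. The number called fell from 5 to 4 of the 20 under each rescaling, where 3106 and 2998 of the 12188 genes were called. The median difference was 0.20 log2 units for the alike genes and -0.04 for the opposite genes, against -0.02 for all genes. The changes of the 20 genes ran from -0.25 to 0.67 log2 units, under that of Uncx. With sex as a covariate 2 of the 20 were called, where 10.5% of all genes were. With males only 0 of the 20 were called by limma, where 2.66% of all genes were, and 7 had an unadjusted p under 0.05, as had 27.1% of all genes.

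A wider group was formed at a likeness of at least 0.8 in size, a level chosen after the data were seen. Of its 89 alike genes, 14 (15.7%) were called higher and 2 (2.25%) lower, and 77 had a higher mean in the knockout, called or not. Of its 48 opposite genes, 5 (10.4%) were called higher and 6 (12.5%) lower, and 19 had a higher mean. Among all genes 11% were called higher and 13.6% lower, and 47.2% had a higher mean. Together 19.7% of these 137 genes were called, fewer than the 24.6% of all genes. The genes of each side share a profile and are not independent of each other, and no test was made of these shares.

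Uncx had more close followers than the median gene in these arrays. At a likeness of 0.9 or more in size there were 27 genes for Uncx, 17 alike and 10 opposite, where the median gene had 11 and 79.4% of the genes had fewer. At 0.8 there were 137 for Uncx and 84 for the median gene. The closest gene to Uncx had a likeness of 0.98. Over all genes the median of this value was 0.96 with quartiles of 0.944 and 0.974, and 86.6% of the genes had a lower one than Uncx.

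Over all 9 arrays without removal of the genotype means, the 5 genes most like Uncx had r from 0.986 to 0.989. All 5 were higher in the knockout with separated groups, by 0.42 to 1.65 log2 units. This r mostly measures the genotype difference by which Uncx was chosen. Within genotype their r with Uncx was 0.53 to 0.81, and 0 of the 5 were among the 20 genes that followed it most closely or most oppositely.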

How the data were processed

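The deposited table holds log2 values, already processed by the authors with the affy package, per the submitters' processing notes. No source used here gives the background correction, normalization, summarization or any filter. The log2 scale was read from the values (2.72 to 14.1, array medians 7.61 to 7.75). Precision is limited by the number of embryos, and without detection calls it is not known whether Uncx in the controls exceeded background. Rows are named by Ensembl identifier. The Ensembl column of the RefSeq gene table (49997 genes) has 0 entries filled, so only Uncx, named by the selection rule, carries a symbol. Dicer1, tissue markers, sex-linked genes, chromosomal neighbours and 17 planned gene lists were therefore not analysed here. Every column had a sample.

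Knockout and control were compared with limma 3.58.1 (R 4.3.3; lmFit, eBayes), no covariate, all 12188 genes, Benjamini-Hochberg adjusted p under 0.05. The sex contrast came from a limma fit with knockouts, male controls and female controls as 3 groups. Both the fit and the likeness measure were tested on simulated data. Named genes are the 10 most alike and the 10 most opposite by likeness, of which 2 each are printed by identifier. Uncx and these choices were made with earlier results of these data known. Upstream sequence came from RefSeq (GRCm38.p6). Alternatives were quantile normalization, median subtraction, sex as a covariate, males only, eBayes with trend and robust options, omission of the dimmer 50% of genes, other measures of likeness and each array left out. Figures were drawn with matplotlib 3.10.9.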

Additional observations from a re-analysis of the deposited data

Results flagged for a closer look

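Of 10 tests for a sample apart from its group (Uncx and the 4 genes printed by identifier, in 2 groups each), 3 passed, and all 3 concern control 3. Chance flags about 1 in 20 groups. Control 3 had 9.351 log2 units of ENSMUSG00000024754, where the gap to the nearest control was 0.943 of the group's range and 0.829 is the limit for 4 samples. It had 6.791 log2 units of ENSMUSG00000038894, with a ratio of 0.954, and 7.379 log2 units of ENSMUSG00000030271, with a ratio of 0.933. The ratio for Uncx itself was 0.811, under the limit. These genes were chosen for following Uncx, in which control 3 was the lowest control, so the 3 results are not independent of each other or of Uncx.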

How the results depend on the processing

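The Uncx difference stayed between 1.99 and 2.16 log2 units in 13 alternatives, and the male minus female difference among controls between -0.34 and -0.03, with limma adjusted p from 0.773 to 1 in 11. Where 1 control male or female was left, its spread was taken from the other groups. Of all genes, 2997 were called, 1285 with sex as a covariate, 324 with males only and 1976 to 3263 with 1 array left out, the lowest without control 1. Of the 20 genes chosen by likeness, 5 were called, 2 with sex as a covariate, 0 with males only (limma; 7 at an unadjusted p under 0.05) and 3 to 5 with 1 array left out (3 without knockout 5, 9 or 11 or control 1, 2 or 3). The 20 genes depended on the measure of likeness: 8 were chosen again with Spearman's rho, 10 without control 4, 10 after quantile normalization and 12 with sex removed, with all 20 keeping their sign in each of these 4, and 0 were chosen again without knockouts 10 and 11, a setting added after the data were seen. The cause was not tested. Uncx is in the dimmer 50% of genes, so leaving these out gave it no value. Lists of homeobox genes and neighbours were not run, as no symbols were paired. No paired analysis was possible because the groups share no replicate number.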
